A study of Mus musculus with 2 samples.

Results

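Prg4, which encodes the joint lubricant lubricin, and 6 genes followed beside it (Htra4, Pla1a, Krtdap, Cytl1, Has1, and Clu) were measured in mouse periosteal cells. They are 7 of the 32288 features of the deposited gene list, found by their symbols. The genes were chosen on their UMI counts in the stromal cells of these same libraries, so their spread over cell classes and their levels beside Prg4 are given as descriptions, with counting intervals and without tests. The cells came from femurs and tibias of C57BL6 mice 4 weeks old, labelled wild type, whose periosteum was peeled off, digested with collagenase, and sorted as CD45-CD31-Ter119-. Droplet scRNA-Seq was run on 2 replicate libraries of this condition, with no treated or mutant group. The number of mice behind a library is not given in the sources used here.

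The 2 libraries differed in what they held. Library 1 had 9932 cell barcodes and 100808649 UMIs (unique molecular identifiers, 1 per captured transcript), and library 2 had 3659 barcodes and 33306452 UMIs. Of these, 6276 and 2893 had at least 500 genes and 500 UMIs with mitochondrial UMIs at or under 10%, and were kept. Hematopoietic clusters took 92.9% and 61.1% of them in spite of the sort, which left 448 stromal cells in library 1 and 1124 in library 2. Both libraries shared 8 barcode sequences, of which none was a stromal cell in both. EGFP, a reporter gene that wild-type mice lack, is a feature of the gene list. It had 0 UMIs in the 6276 cells of library 1 and 6837 UMIs in 170 of the 2893 cells of library 2, of which 166 were stromal, against 2 of 962 B cell-like cells there. Library 2 thus goes against its wild-type label, and a difference in genotype cannot be told apart from any other difference between the libraries. In Prg4-rich stromal cells of library 2, EGFP was counted in 10 of 131 (22 UMIs), and its part in the values below was not tested. Levels of the 7 genes are given for each library apart, because cells of a library are not replicates, and the intervals (95%, exact Poisson for UMIs, exact binomial for shares of cells and for ratios) cover counting error only.

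Lubricin is a large mucin-like glycoprotein that coats joint and tendon surfaces and keeps them gliding. It is made mainly by fibroblasts of the synovial lining and by chondrocytes of the superficial zone of articular cartilage, and it is also found at gliding surfaces of tendons. Has1 encodes a hyaluronan synthase, an enzyme that makes the other main lubricating polymer of synovial fluid. Htra4 encodes a secreted serine protease of the HtrA family, and Pla1a a secreted phospholipase that acts on phosphatidylserine. Cytl1 encodes a small secreted protein known from chondrocytes, Clu the secreted chaperone clusterin, and Krtdap a small secreted protein known from differentiating keratinocytes.

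On GRCm38, the 7 protein-coding genes lie on 7 chromosomes. Prg4 is at chr1:150449412-150466165 on the minus strand, Htra4 at chr8:25024929-25038962 (minus), Pla1a at chr16:38396117-38433145 (minus), and Has1 at chr17:17843323-17855205 (minus). On the plus strand are Krtdap at chr7:30787896-30791097, Cytl1 at chr5:37735519-37739820, and Clu at chr14:65968483-65981547. Upstream sequence from RefSeq (GRCm38.p6) was matched for 3 of the 7, Cytl1, Has1, and Krtdap, and not for Prg4, Htra4, Pla1a, and Clu. The 250 bases before the annotated start site are shown for these 3 because most Cytl1 UMIs of library 2 were in one kind of Prg4-bearing class and most Has1 and Krtdap UMIs in another (below). Capitals mark matches to 6 motifs searched on both strands, the TATA box (TATAAA), AP-1 (TGANTCA), CRE (TGACGTCA), forkhead (GTAAACA), TEAD (CATTCC), and the CCAAT box (CCAAT).
Cytl1, chr5:37735269-37735518, plus strand: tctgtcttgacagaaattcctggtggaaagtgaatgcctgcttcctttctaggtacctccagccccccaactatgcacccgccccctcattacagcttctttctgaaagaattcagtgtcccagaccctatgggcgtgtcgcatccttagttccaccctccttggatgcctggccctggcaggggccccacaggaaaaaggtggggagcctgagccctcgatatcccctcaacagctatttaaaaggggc
Has1, chr17:17855189-17855438, minus strand: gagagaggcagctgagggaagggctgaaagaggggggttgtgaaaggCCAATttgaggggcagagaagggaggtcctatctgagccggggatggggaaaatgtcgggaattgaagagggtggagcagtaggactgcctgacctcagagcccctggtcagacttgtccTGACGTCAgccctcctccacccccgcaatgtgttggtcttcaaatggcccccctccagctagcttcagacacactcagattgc
Krtdap, chr7:30787655-30787904, plus strand: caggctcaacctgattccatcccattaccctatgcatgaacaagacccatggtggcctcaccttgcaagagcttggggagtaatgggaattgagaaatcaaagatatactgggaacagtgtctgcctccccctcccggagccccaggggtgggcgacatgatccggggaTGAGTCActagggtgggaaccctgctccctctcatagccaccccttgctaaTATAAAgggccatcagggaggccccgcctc
Distances are counted from the RefSeq start site. For Krtdap and Has1 it lies inside the gene span given above, so that these 2 windows overlap the spans. The Krtdap window held a TATA box whose first base is 30 bases before the start site and an AP-1 match 81 bases before it. The Has1 window held a CRE match 83 bases and a CCAAT box 203 bases before the start site. The Cytl1 window held none of the 6 letter strings. Among 32841 RefSeq windows of the same length, 12.4% held a TATA box, 6.75% AP-1, 1.55% CRE, 3.17% forkhead, 12.6% TEAD, and 33.9% a CCAAT box, so these matches are descriptions and not sites.

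Prg4 was counted in few stromal cells and was very unevenly shared among them. In library 1, 11 of 448 stromal cells had 646 Prg4 UMIs, and in library 2, 232 of 1124 had 64318. Of these UMIs, 50% came from 2 cells in library 1 and from 14 in library 2, and 90% from 3 and 39 cells. The 10 cells with the most Prg4 held 99.8% of its UMIs in library 1 and 41.9% in library 2. The highest cell of library 1 had 312 Prg4 UMIs, and the highest of library 2 had 3623, which was 34.8% of all UMIs of that cell. At the other end, 1 and 64 cells had a single Prg4 UMI. A single UMI can be free RNA: in B cell-like cells, which should lack Prg4, it was seen in 2 of 1957 cells (0.102%) of library 1 and 17 of 962 (1.77%) of library 2, at median depths of 3495 and 3898 UMIs. In the same 962 B cell-like cells, Htra4 was seen in 1, Pla1a in 2, Cytl1 in 3, Clu in 10, and Krtdap and Has1 in 0. Among the other hematopoietic cells of library 2, however, 1 cell had 30 Krtdap UMIs and 1 had 12.

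Cells with at least 5 Prg4 UMIs are called Prg4-rich. They numbered 7 in library 1 (1.56% of stromal cells, 0.630 to 3.19) and 131 in library 2 (11.7%, 9.84 to 13.7), and they held 98.6% and 99.7% of the Prg4 UMIs. Just outside this limit, 1 and 7 cells had 4 UMIs, and just inside it, 0 and 6 cells had 5. The limit was also reached by 3 of the 1769 hematopoietic cells of library 2, with 6 to 9 Prg4 UMIs, and by 0 of the 5828 of library 1. Cells just inside the limit are therefore not clearly above background. With a limit of 10 UMIs, 116 of the 138 stromal cells remained. At least 100 Prg4 UMIs were found in 2 and 56 cells, and at least 1000 in 0 and 26. Library 1 thus gives 7 Prg4-rich cells in all, with 312, 212, 63, 20, 15, 9, and 6 Prg4 UMIs, and most values below rest on library 2.

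**Figure D1:**
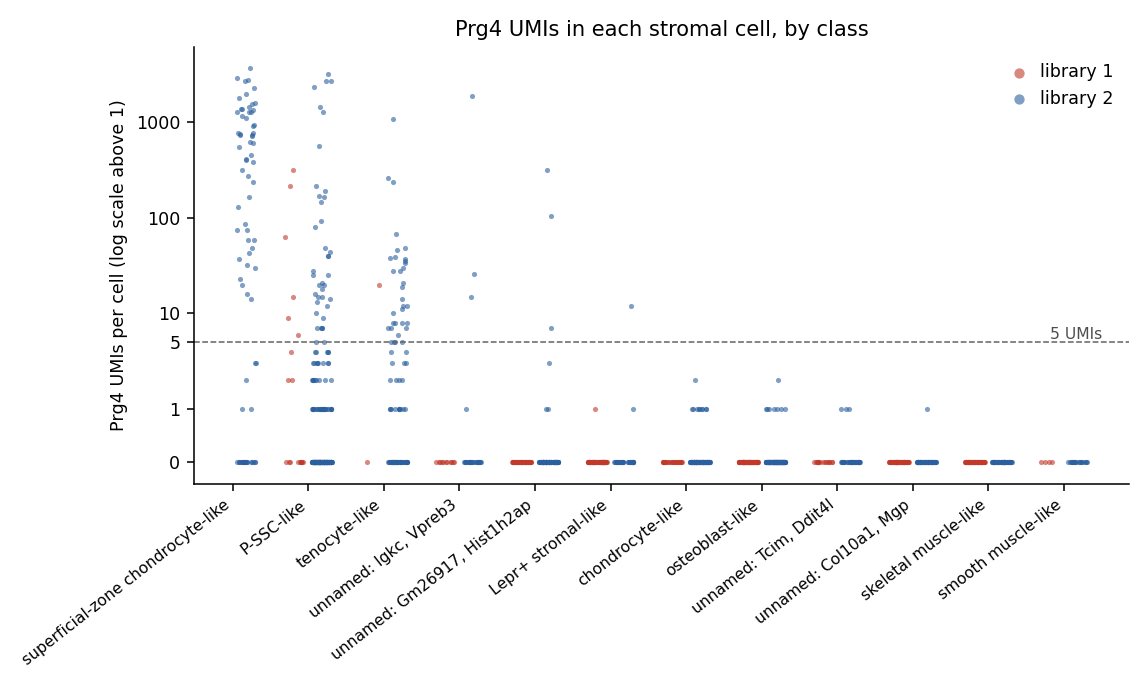
Prg4 UMIs of each of the 1572 stromal cells (vertical axis, 0 and then a log scale above 1) by cell class (horizontal axis), with library 1 in red, library 2 in blue, and the limit of 5 UMIs dashed. Cells with 100 or more UMIs lie mostly in the superficial-zone chondrocyte-like, P-SSC-like, and tenocyte-like classes, and the superficial-zone chondrocyte-like class has cells of library 2 only.

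Clusters were made without the 7 genes among the variable genes and were named from other markers, so that the classes below do not rest on them directly. A class like the chondrocytes of the superficial zone had 77 cells, all of library 2. It had 4 of 6 markers (Erg, Creb5, Cilp, and Abi3bp) and not Dkk3 or Gdf5. It held 44084 Prg4 UMIs, 68.5% of those of library 2, and 52 of its 77 cells were Prg4-rich (67.5%, 55.9 to 77.8). P-SSC-like cells were 19 in library 1 and 284 in library 2. P-SSC stands for periosteal skeletal stem cell, but the class was named from Ly6a, Cd34, Clec3b, Pi16, Dpp4, Mfap5, Pdgfra, and Thy1. These 8, called P-SSC markers below, include markers of Pi16+ fibroblasts. They do not include Lrp1 or CD13, the P-SSC markers of the study. P-SSC-like cells held 625 Prg4 UMIs (96.7%) and 15665 (24.4%), with 6 and 39 Prg4-rich cells. All 6, and 36 of the 39, were in the cluster led by Pi16, Mfap5, and Fbn1, while the cluster led by Mfap4, Eln, and Apod held 0 of 4 and 3 of 118. Tenocyte-like cells (2 and 103) held 20 and 2213 Prg4 UMIs (3.10% and 3.44%), and 1 and 33 of them were Prg4-rich. Of the other classes, an unnamed cluster led by the B-cell genes Igkc and Vpreb3 held 1888 Prg4 UMIs in library 2, 1846 of them in 1 cell, and one led by Gm26917 and Hist1h2ap held 431. Chondrocyte-like cells of library 2 had at most 2 Prg4 UMIs each. Prg4 was seen in 10 of 119 (8.40%) at a median depth of 30323 UMIs, beside 17 of 962 B cell-like cells of the same library. At 1000 UMIs per cell the shares are 0.419% and 0.463%. Whether chondrocyte-like cells were above background thus depends on how depth is taken into account, and was not tested.

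The other genes divided between the same classes. Htra4 was concentrated in P-SSC-like cells, with 98 of 98 stromal UMIs in library 1 and 301 of 399 (75.4%) in library 2. Of these, 98 and 261 UMIs were in the 2 and 12 cells of the class with at least 100 Prg4 UMIs. The same cells held 524 and 14932 of the Prg4 UMIs of the class, and most P-SSC markers were low in them (below). Pla1a was likewise mostly P-SSC-like, with 45 of 62 UMIs (72.6%) and 214 of 247 (86.6%). Has1 had 10 of 37 UMIs (27.0%) and 287 of 479 (59.9%) there. In library 1, more of its UMIs were in osteoblast-like cells (21 UMIs, 56.8%) than in P-SSC-like cells. These shares follow the size of the classes, however. The 21 Has1 UMIs were among 2538860 UMIs of 93 osteoblast-like cells, and the 10 among 245398 UMIs of 19 P-SSC-like cells. Relative to all UMIs of a class, Has1 was thus higher in P-SSC-like than in osteoblast-like cells of library 1. Krtdap had 2 of 10 UMIs and 268 of 344 (77.9%) in P-SSC-like cells. In library 1, 7 of its 10 UMIs were in 1 cell of the cluster led by Igkc and Vpreb3, and in library 2 a further 53 UMIs were in 1 superficial-zone chondrocyte-like cell.

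Cytl1 and Clu lay on the cartilage side. In library 2, superficial-zone chondrocyte-like cells held 2922 of 3458 Cytl1 UMIs (84.5%) and chondrocyte-like cells 363 (10.5%), whereas P-SSC-like cells held 7. Library 1, which had no superficial-zone chondrocyte-like cell, held 31 Cytl1 UMIs, 17 of them in the unnamed cluster led by Col10a1 and Mgp and 10 in chondrocyte-like cells. Clu was the most widespread of the 7, counted in 150 stromal cells of library 1 and 317 of library 2. Its UMIs of library 2 were in superficial-zone chondrocyte-like (2854, 43.2%) and tenocyte-like cells (2500, 37.8%), and those of library 1 mainly in Lepr+ stromal-like cells, the marrow stromal class (285 of 578, 49.3%). The division of Clu between superficial-zone chondrocyte-like and tenocyte-like cells moved with the clustering: at resolution 0.4 the superficial-zone class held 76.2% of the Clu UMIs of library 2 and 70 Prg4-rich cells, and without integration 86.3% and 73, with 11 Prg4-rich cells left in the tenocyte-like class.

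**Figure D2:**
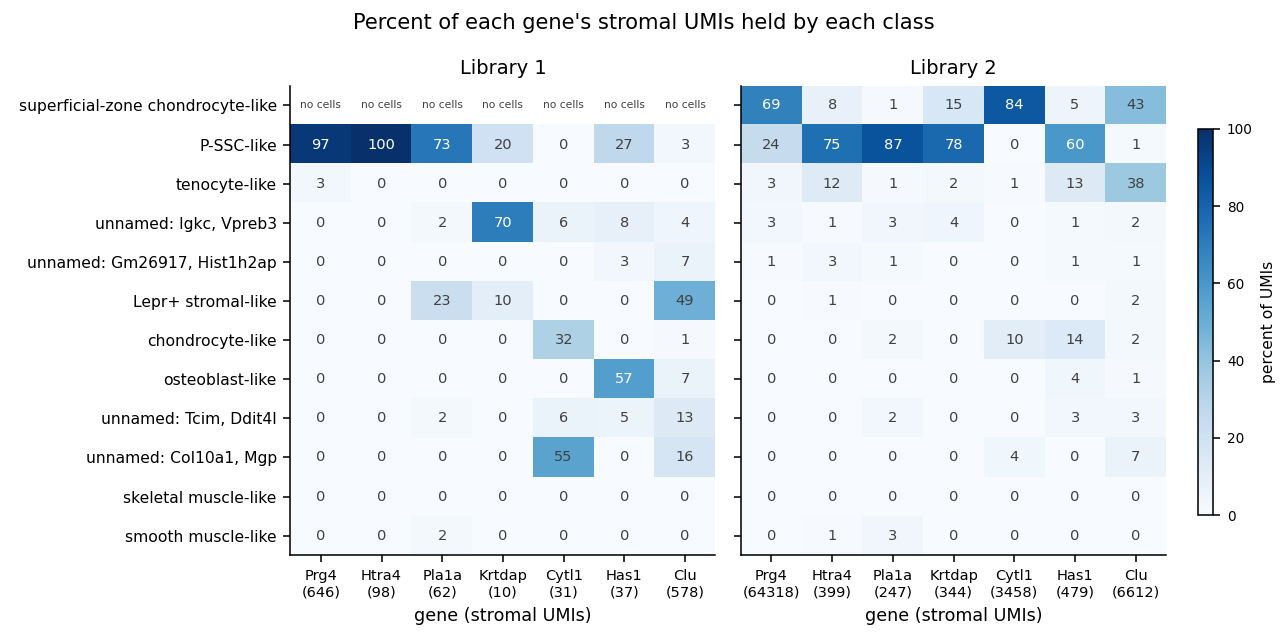
Percent of each gene's stromal UMIs (color and printed value) by class (rows) and gene (columns, with the stromal UMIs of the gene in parentheses), for library 1 (left) and library 2 (right). In library 2, Htra4, Pla1a, Krtdap, and Has1 are darkest in the P-SSC-like row and Prg4, Cytl1, and Clu in the superficial-zone chondrocyte-like row, which has no cells in library 1.

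Against all other stromal cells, Prg4-rich cells had more of the other 6 genes in library 2 and of 3 of them in library 1. Htra4 was at 965 CPM (UMIs of a gene per 1000000 UMIs of the group) in the 7 Prg4-rich cells of library 1 and at 0 UMIs in the other 441, a ratio of at least 1893 against 3 counts, and at 257 against 2.99 CPM in library 2, a ratio of 85.9 (61.6 to 123). Pla1a was 41.9 times higher in library 1 (24.3 to 71.3) and 7.35 times in library 2 (5.66 to 9.52). Has1 was 13.5 times (5.01 to 31.4) and 4.62 times higher (3.80 to 5.61). These 3 were thus higher in both libraries, though each of the library 1 values rests on 2 of the 7 cells, with 20 of 26 Pla1a and 6 of 7 Has1 UMIs in 1 cell.

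The remaining 3 genes were higher in library 2 and were not seen to be higher in library 1. Cytl1 was 52.8 times higher in the Prg4-rich cells of library 2 (48.1 to 58.1), Clu 21.3 times (20.3 to 22.5), and Krtdap 3.20 times (2.48 to 4.09). In library 1, Cytl1 and Krtdap had no UMI in the Prg4-rich cells, against 31 and 10 UMIs elsewhere, which allows ratios of up to 5.61 and 17.4, and Clu was lower, with a ratio of 0.20 (0.024 to 0.730). The difference between the libraries was not tested. Counted as a CPM fold of at least 2 with 10 CPM added to both sides, 3 of 5 genes with at least 20 UMIs were higher and 1 lower in library 1, and 6 of 6 were higher in library 2. Over all genes tested in this way, 15.9% were higher and 12.9% lower in library 1, where the 7 cells make any ratio coarse, and 2.25% were higher and 3.16% lower in library 2. By the same count, 6 of 7 synovial lining markers were higher in both libraries, with medians of 3.04 and 1.64 on the log2 scale beside 0.13 and -0.04 over all genes. The marker lists, here and below, were chosen with earlier results of these data known, so that their counts are descriptions and test nothing. As shares of cells with a UMI, Htra4 was found in 56 of 131 Prg4-rich cells of library 2 (42.7%) and in 3.42% of the others, or 12.6% and 0.561% at 1000 UMIs per cell, and Cytl1 in 53 (40.5%) and 5.64%, or 30.8% and 1.78%. Median depths were close, at 9946 and 9316 UMIs.

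Seen from each gene, the cells with at least 5 of its UMIs were often but not always Prg4-rich. For Htra4 they were so in 2 of 2 cells of library 1 and 14 of 14 of library 2. For Cytl1 the counts were 0 of 2 and 42 of 60, and for Clu 0 of 44 and 67 of 135. For Pla1a they were 2 of 3 and 7 of 13, for Has1 1 of 2 and 9 of 29, and for Krtdap 0 of 1 and 6 of 23. Htra4 is therefore the member whose high cells were all Prg4-rich, while most high cells of Krtdap and Has1 were not. Of the 23 high cells of Krtdap in library 2, however, only 7 had no Prg4 UMI.

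Within the Prg4-rich cells, the 6 genes separated by class. Among the 39 Prg4-rich P-SSC-like cells of library 2, Htra4, Pla1a, Krtdap, or Has1 was counted in 32 and Cytl1 in 2. Of the 52 Prg4-rich superficial-zone chondrocyte-like cells, 45 had Cytl1, 52 had Clu, and 23 had any of the former 4, of which 21 had Htra4 at 1 to 3 UMIs. Set side by side in library 2, Prg4 was at 87933 CPM in the superficial-zone and 32320 CPM in the P-SSC-like cells, a ratio of 2.72 (2.67 to 2.77). That P-SSC-like level mixes 81194 CPM in 12 cells with at least 100 Prg4 UMIs and 2158 CPM in 27 cells with 5 to 99. Cytl1 was 558 times (239 to 1719) and Clu 765 times higher (262 to 3714) in the superficial-zone cells. Htra4 was at 0.11 of the P-SSC-like level there (0.071 to 0.154) and Has1 at 0.18 (0.111 to 0.285), and Pla1a and Krtdap had 0 UMIs against 108 and 71. In the gene lists, 7 of 7 P-SSC markers with enough UMIs (median log2 difference -5.88) and 7 of 7 synovial lining markers (-4.40) were lower in the superficial-zone cells and 8 of 8 chondrocyte markers (5.04) higher. The background for these counts is 15.3% of 5320 genes lower and 7.33% higher, with a median of -0.24, and both classes were defined by clustering on such genes, so that nothing is tested by it.

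**Figure D3:**
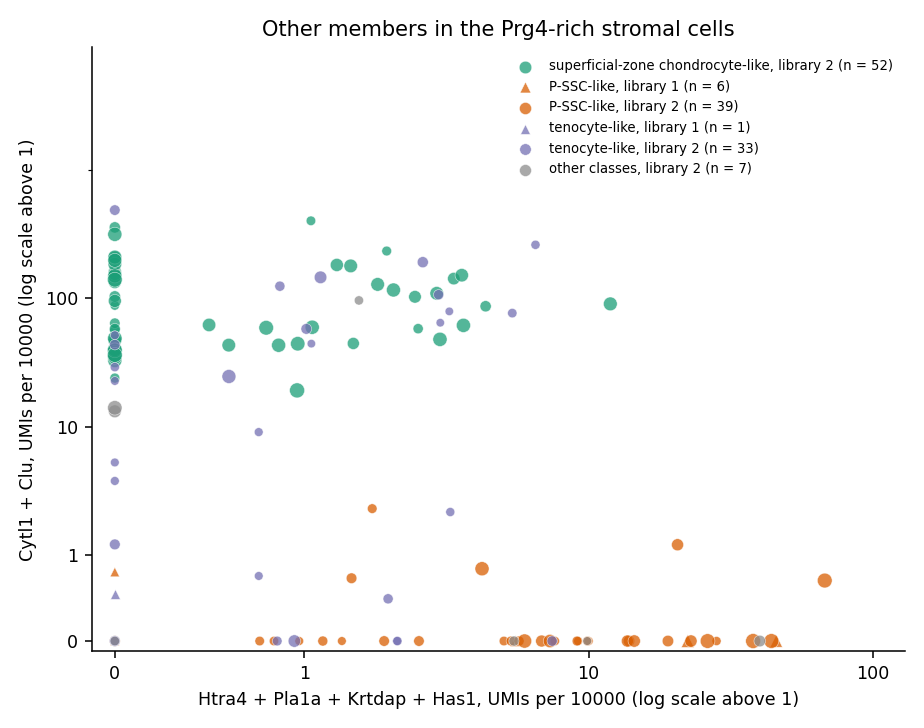
Summed UMIs of Htra4, Pla1a, Krtdap, and Has1 (horizontal) and of Cytl1 and Clu (vertical) per 10000 UMIs of each Prg4-rich stromal cell, on log scales above 1, colored by class, with triangles for library 1, circles for library 2, and larger symbols for more Prg4. The 39 P-SSC-like cells of library 2 lie along the bottom and the 52 superficial-zone chondrocyte-like cells at the top left, with tenocyte-like cells in both regions.

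Within P-SSC-like cells, Prg4-rich cells again had more Htra4, Pla1a, and Has1 in both libraries. Htra4 was at 1174 CPM against 0 UMIs in library 1 (at least 63.4 times) and at 583 against 8.99 CPM in library 2, a ratio of 64.9 (41.2 to 108). Pla1a was 2.66 times (1.41 to 5.08) and 4.70 times higher (3.57 to 6.21), and Has1 4.53 times (1.03 to 27.1) and 3.41 times (2.68 to 4.34). Clu was lower, at 1 against 14 UMIs and 3 against 92, ratios of 0.14 (0.0033 to 0.911) and 0.15 (0.030 to 0.454). In library 1, 13 of the 14 UMIs were in 1 cell, so that its ratio rests on that cell. Krtdap had 0 against 2 UMIs in library 1 and a ratio of 1.66 in library 2 (1.25 to 2.19), which was 1.08 (0.810 to 1.43) against only the other cells of the cluster led by Pi16, Mfap5, and Fbn1. Against those cells the ratio of Pla1a in library 2 was 2.77 (2.10 to 3.66), that of Has1 in library 1 was 3.23 with an interval that includes 1 (0.738 to 19.4), and Clu in library 1 had 1 UMI on each side. Of the list of synovial lining markers, 5 of 7 were at least 2-fold higher in both libraries (Clic5, Tspan15, Col22a1, Hbegf, and Itga6), with medians of 4.77 and 3.74 on the log2 scale. Over all genes, 6.27% and 1.58% were higher and 5.99% and 3.26% lower in libraries 1 and 2, with medians of 0.04 and -0.02.

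Most of the Htra4 of the class was in 14 cells with at least 100 Prg4 UMIs, a limit chosen after the values had been seen. There were 2 in library 1 and 12 in library 2, all in the cluster led by Pi16, Mfap5, and Fbn1. The 2 cells of library 1 had 312 and 212 Prg4 UMIs with 39 and 59 Htra4 UMIs. The 12 cells of library 2 had between 145 and 3135 Prg4 UMIs. In order of Prg4, the 6 highest (3135, 2688, 2671, 2290, 1432, and 1279 UMIs) had 73, 75, 38, 12, 0, and 5 Htra4 UMIs. The 6 lower cells (557, 212, 191, 168, 164, and 145 UMIs) had 7, 14, 16, 15, 6, and 0. Htra4 was thus present in 2 of 2 and 10 of 12 cells, at 2687 and 1419 CPM, against 0 and 9.70 CPM in P-SSC-like cells without Prg4.

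Pla1a was at 548 and 468 CPM in these 14 cells against 119 and 51.3 CPM in P-SSC-like cells without Prg4, and 48 of the 86 UMIs of library 2 were in 1 cell. Has1 was at 192 and 468 CPM against 15.9 and 73.6 CPM, with 6 of its 7 UMIs in library 1 and 41 of its 86 in library 2 in 1 cell. Krtdap had no UMI in any of the 14, which allows up to 82.3 and 16.3 CPM, whereas it was at 238 CPM in the 27 P-SSC-like cells of library 2 with 5 to 99 Prg4 UMIs and at 53.1 CPM in the 195 without Prg4. Cytl1 had 0 and 1 UMI and Clu 0 and 2.

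Summed over these 14 cells, most markers of the synovial lining were high and most markers of the class they were placed in were low. Clic5, a lining fibroblast marker that encodes a chloride intracellular channel family protein, was at 1398 and 1060 CPM in them. It was counted in 2 of 2 and 11 of 12, with a single UMI in 4 of the 11, and in none of the 13 and 245 P-SSC-like cells with 0 to 4 Prg4 UMIs, which allows up to 18.5 and 1.35 CPM. Hbegf, an EGF-family growth factor, was at 2413 and 2148 CPM against 0 and 8.56 CPM in cells without Prg4. Of its UMIs in the 14 cells, 86 of 88 in library 1 and 172 of 395 in library 2 were in 1 cell. Prg4-rich P-SSC-like cells held 37.8% and 19.2% of the stromal Hbegf UMIs. In library 2, 175 of the 250 stromal cells with Hbegf had no Prg4. Col22a1, a collagen of tissue junctions, was at 631 and 593 CPM against 0 and 0.570, but it was also among the leading genes of an osteoblast-like cluster, and Prg4-rich P-SSC-like cells held 2.02% and 9.50% of its stromal UMIs. Pi16, which leads the cluster, had no UMI in any of the 14 and was at 230 and 914 CPM in cells without Prg4. Mfap5, a microfibril protein, was at 54.8 and 653 CPM against 2431 and 2762, and Clec3b at 0 and 27.2 CPM against 3821 and 2871.

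By list, 5 of 6 and 6 of 7 lining markers with enough UMIs were at least 2-fold higher than in P-SSC-like cells without Prg4 (median log2 6.30 and 5.01), with Cd55 lower in library 1. All 8 P-SSC markers were lower in library 1 and 7 of 8 in library 2, Pdgfra being the exception (median log2 -4.78 and -3.26). Among all genes, 13.8% and 4.47% were higher and 17.2% and 13.0% lower in libraries 1 and 2, with medians of 0.12 and -0.04. The 14 are called lubricin-high cells here, and they were not uniform. Ly6a, a marker of the class, was counted in all 14 (1 to 48 UMIs), and Mfap5 had 29, 78, and 12 UMIs in the cells of library 2 with 2290, 1432, and 145 Prg4 UMIs. The cell with 1432 Prg4 UMIs had neither Htra4 nor Clic5, and those with 2290, 1279, 164, and 145 had 1 Clic5 UMI each, so that the Clic5 level of library 2 rests on the other 7. Of the lining markers, Cd55 and Thbd were spread over the class, counted in 143 and 157 P-SSC-like cells of library 2, of which 24 and 31 were Prg4-rich. Thbd had only 0 to 3 UMIs in each of the 12 lubricin-high cells of library 2. All 28 P-SSC-like cells of library 2 with at least 5 Thbd UMIs had fewer than 100 Prg4 UMIs. The other 5 lining markers, which are those higher in the Prg4-rich cells and so were picked by their values, were found in numbers of at least 4 in 2 and 12 stromal cells, of which 2 and 11 were Prg4-rich P-SSC-like cells and 1 was an osteoblast-like cell without Prg4.

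Markers of some other cell types moved with the lubricin-high cells. Of 7 smooth muscle markers, 4 had a UMI in each library. Their sum was 5 and 16 UMIs in the 2 cells of library 1 (576 CPM, against 7.94 CPM without Prg4) and 2 to 172 per cell in library 2 (median 9, 2235 CPM), against 0 to 64 per cell (median 0, 82.7 CPM) in the 195 P-SSC-like cells without Prg4. At 0 were Acta2, Myh11, and Mcam in library 1 and Myh11, Mcam, and Notch3 in library 2, while Rgs5, Acta2, and Tagln, which lead the smooth muscle-like cluster, all had UMIs in library 2, Rgs5 in 8 of the 12 cells. In the 4 cells of library 2 without Rgs5, Htra4 was at 680 CPM, Clic5 at 190, Hbegf at 775, and Has1 at 245, all less than the level over the 12. Pla1a was at 925 CPM and Mfap5 at 1619, both more than over the 12, and Pi16 again had no UMI. A single one of the 12 cells, that with 145 Prg4 UMIs, had fewer than 5 UMIs of both the smooth muscle and the osteoblast list, and it had 0 Htra4, 5 Pla1a, and 1 Clic5 UMI. Of 8 osteoblast markers, 3 had a UMI in each library, with sums of 14 and 41 UMIs in library 1 (1508 CPM, against 87.4 CPM) and 0 to 23 in library 2 (median 1, 370 CPM, against 45.6 CPM), and Sp7, Alpl, and Dmp1 were at 0 in both. The 6 tenocyte markers summed to 14 and 37 UMIs in library 1 (1398 CPM, against 23.8 CPM) and 0 to 102 in library 2 (903 against 330 CPM). Of these, 1 (Thbs4) had a UMI in library 1 and 2 (Thbs4 and Scx) in library 2, and Tnmd, Mkx, Fmod, and Kera were at 0 in both. Chondrocyte markers went the other way, summing to 54.8 against 95.3 CPM in library 1 and 21.8 against 527 CPM in library 2. No UMI of the 3 pan-hematopoietic or 5 endothelial markers was found in the 14 cells. EGFP was counted in 2 of the 12 cells of library 2 (5 UMIs). The part of smooth muscle, osteoblast, or tenocyte RNA in these levels was not tested.

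**Figure D4:**
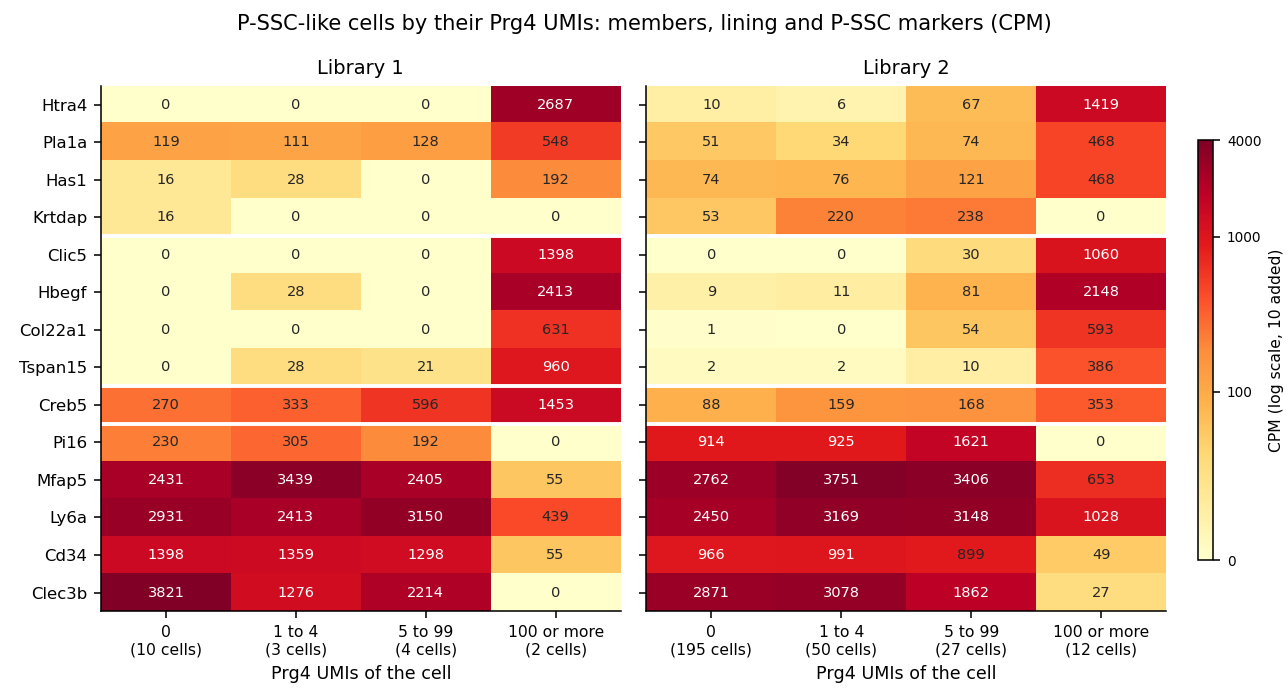
CPM (color, log scale, and printed value) of 4 of the 7 genes, 4 of the 7 lining markers, Creb5, and 5 of the 8 P-SSC markers (rows) in P-SSC-like cells grouped by their Prg4 UMIs (columns, with the number of cells), for library 1 (left) and library 2 (right). The rows are a choice from the lists. Not shown are Cd55, Thbd, and Itga6 of the lining list and Dpp4, Pdgfra, and Thy1 of the P-SSC list. Of these, Cd55 was lower in library 1 and Pdgfra was not lower in library 2. Thbd had only 0 to 3 UMIs in each cell of library 2 in the column of 100 or more. Htra4, Clic5, Hbegf, Col22a1, and Tspan15 are high and Pi16, Cd34, and Clec3b low in the column of 100 or more, while Pi16 and Mfap5 remain in the column of 5 to 99.

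P-SSC-like cells with 5 to 99 Prg4 UMIs (4 and 27) had Pi16 and Mfap5 at levels near or above those of cells without Prg4. Pi16 was at 192 and 1621 CPM in them and Mfap5 at 2405 and 3406, and Clic5 had 0 and 9 UMIs. Htra4 had no UMI in library 1 and was at 67.1 CPM in library 2, 6.92 times the level in cells without Prg4 (3.44 to 14.1). Krtdap, counted in 8 of the 27, was 4.49 times higher than in cells without Prg4 (3.25 to 6.18) in library 2, with 29 of its 71 UMIs in 1 cell. Pla1a was 1.44 times higher (0.859 to 2.31), an interval that includes 1. Of the 195 cells without Prg4, 101 were in the cluster led by Mfap4, Eln, and Apod. In cells of the cluster led by Pi16 that were not Prg4-rich, Krtdap was at 136 CPM, beside 238 CPM in the 27. The part of this mix of clusters in the ratios was not tested. Among P-SSC-like cells of library 2, Krtdap and Pi16 were thus found in cells without Prg4 and at 5 to 99 Prg4 UMIs, and not above. Most of the Htra4, Clic5, and Hbegf was found at 100 or more.

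In the superficial-zone chondrocyte-like class, Cytl1 was nearly limited to Prg4-rich cells and Clu was not. Its 52 Prg4-rich cells had 14 to 3623 Prg4 UMIs (median 665), and Prg4 made up a median of 7.17% of the UMIs of a cell. Cytl1 was at 5788 CPM in them and 61.7 CPM in the other 25 cells, a ratio of 93.7 (61.2 to 152), and was counted in 45 of 52 and 2 of 25. Clu was at 4764 and 1370 CPM, a ratio of 3.48 (3.15 to 3.85), and was counted in 52 of 52 and 23 of 25. Htra4 had 31 UMIs in 21 Prg4-rich cells and none in the others, at least 7.01 times higher. Has1 had 23 UMIs in 3 Prg4-rich cells and 1 elsewhere, and the 53 Krtdap UMIs were in 1 cell that was not Prg4-rich. The other 25 cells differed from the Prg4-rich ones in more than these genes. Osteoblast markers summed to 16522 CPM in them against 2576 CPM, and chondrocyte markers to 35085 against 14722 CPM. The part of this difference in the ratios was not tested.

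Among Prg4-rich cells, CPM of Cytl1 and Clu were not highest where Prg4 was highest. In cells with 5 to 99, from 100 to under 1000, and at least 1000 Prg4 UMIs (14, 20, and 18 cells), Cytl1 was at 5828, 7040, and 4617 CPM and Clu at 7003, 5072, and 2953 CPM. Prg4 itself is part of the total that CPM are scaled to. As UMIs per cell, the median Cytl1 was 6.5, 51.5, and 29 and the median Clu 27.5, 36, and 27. By list, 5 of 9 chondrocyte markers (median log2 -1.003) and 4 of 4 osteoblast markers with enough UMIs (-3.19) were at least 2-fold lower in the 52 Prg4-rich cells than in the other 25, and none was higher, where 4.44% of all 4320 genes tested were lower and 5.19% higher, with a median of -0.0024. Col2a1, the main collagen of cartilage, was at 27156 CPM in the 20 cells without Prg4 against 4751 CPM in the 18 cells with at least 1000 Prg4 UMIs, and Ibsp, a bone sialoprotein gene, at 17572 against 244 CPM. Creb5, a transcription factor known to regulate Prg4 in articular cartilage, went the other way, at 24.7 and 212 CPM.

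**Figure D5:**
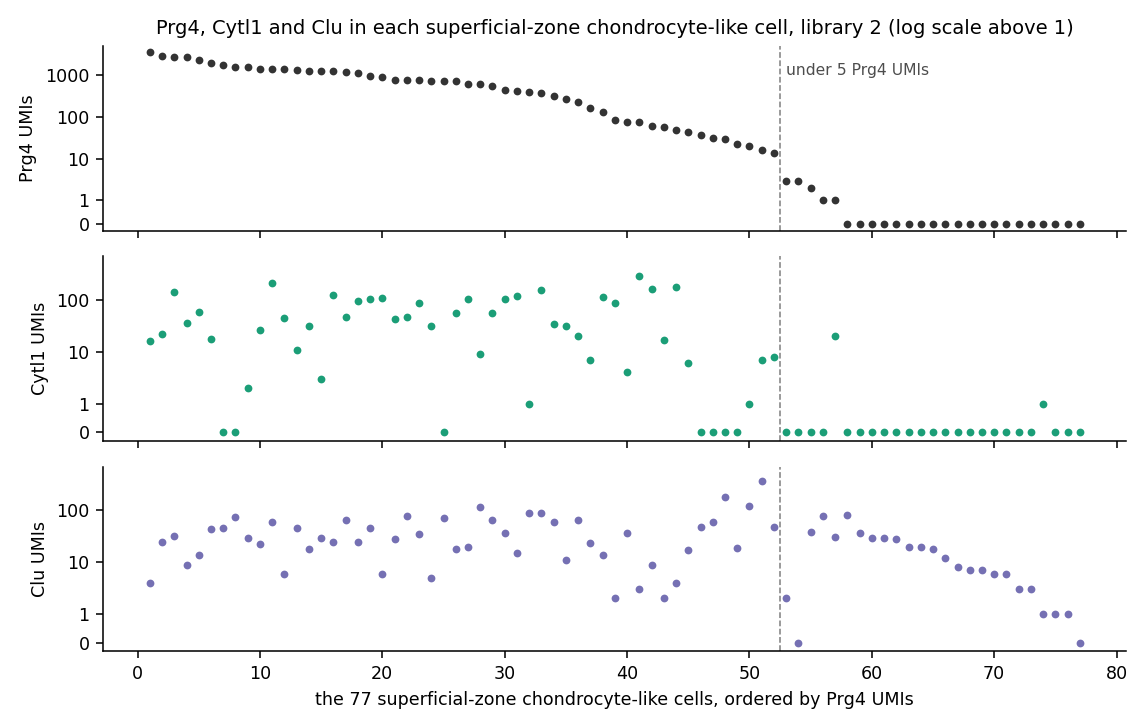
UMIs of Prg4, Cytl1, and Clu (3 panels, 0 and then a log scale above 1) in each of the 77 superficial-zone chondrocyte-like cells of library 2, ordered from left to right by Prg4 and, where Prg4 is equal, by Clu, so that the fall of Clu among cells without Prg4 is the ordering, with a dashed line between the 52 Prg4-rich cells and the rest. Cytl1 is nearly limited to the cells left of the line (45 of 52 against 2 of 25), whereas Clu is found on both sides (52 of 52 and 23 of 25).

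Tenocyte-like cells held Prg4 at lower levels. The 33 Prg4-rich cells of library 2 had 5 to 1075 Prg4 UMIs with a median of 14. Clu was at 5892 CPM in them and 824 CPM in the other 70, a ratio of 7.15 (6.45 to 7.95), and Htra4 at 109 and 20.6 CPM, a ratio of 5.28 (2.64 to 11.4). Has1 was lower, at 37.2 against 88.0 CPM, a ratio of 0.42 (0.210 to 0.794). Cytl1 had 22 UMIs in 4 Prg4-rich cells and 1 in 1 other. Tnmd, the tendon gene tenomodulin, was at 2191 CPM in the Prg4-rich and 4082 CPM in the other cells, and Comp, a cartilage and tendon matrix protein, at 7422 and 2882 CPM. The 33 cells had markers of both kinds. Their 9 chondrocyte markers summed to 7977 CPM, with at least 5 such UMIs in 32 of the 33, and their 6 tenocyte markers to 8535 CPM. In the 52 Prg4-rich superficial-zone chondrocyte-like cells the same sums were 14722 and 2608 CPM. Whether the 33 are tendon cells was not tested. Merged without integration, the tenocyte-like class held 64 cells, 11 of them Prg4-rich, with 0.408% of the Clu UMIs.

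Other genes of the same pathways were followed from lists. Of 6 regulators known for Prg4, Creb5, Tgfbr1, and Foxo1 were at least 2-fold higher in Prg4-rich than in other P-SSC-like cells of library 2, and Creb5 was the 1 of 3 with enough UMIs in library 1, where 1.58% of all genes were higher in library 2 and 6.27% in library 1. Against only the other cells of the cluster led by Pi16, Foxo1 was the 1 of the 6 that was higher in library 2 and Smad3 was lower, and Creb5 was higher in library 1 and Tgfbr2 lower. In that comparison, 6.92% and 1.79% of all genes were higher and 6.24% and 2.67% lower in libraries 1 and 2. Creb5 was at 1453 and 353 CPM in the lubricin-high cells and at 270 and 87.9 CPM in P-SSC-like cells without Prg4. In the other hyaluronan genes, 0 of 3 and 1 of 7 were higher, the 1 being Cemip2, a hyaluronidase gene, and none was lower, in the comparison with all other P-SSC-like cells. None of the other HtrA protease genes was 2-fold different (2 and 3 tested), and of the lysophospholipid enzymes and receptors, 0 of 1 and 1 of 3 were higher, the 1 being Enpp2, which encodes autotaxin and did not pass against the cluster led by Pi16 alone.

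Genes over all stromal cells were ranked by their CPM fold in Prg4-rich over other stromal cells of library 2, with a fold above 1 also required in library 1. That condition left out Cytl1 and Clu, whose ratios in library 2 (52.8 and 21.3) were larger than that of Cilp. Cilp, Abi3bp, and Thbs4 were also in the marker lists that named the classes, so that the ranking in part restates those classes. After Prg4 and Htra4 came Cilp (730 against 61.0 CPM), Cilp2 (902 against 81.9), Abi3bp (1577 against 167), Sbsn (382 against 45.0), Barx1 (89.2 against 5.06), Gm17455 (168 against 18.7), Thbs4 (912 against 149), and Scara3 (364 against 56.1). Cilp and Cilp2 encode proteins of the cartilage intermediate layer, Abi3bp and Thbs4 are matrix genes, and Barx1 encodes a homeobox transcription factor expressed at developing joints. In library 1 their log2 folds lay between 0.91 (Sbsn) and 4.81 (Thbs4), with Cilp2 at 2 UMIs and Sbsn at 3 in the 7 Prg4-rich cells. Restricted to P-SSC-like cells, the leading genes beside Htra4 and the lining markers were Rgs5, F13a1, Rgcc, and Cystm1, the last 3 named after their values were seen. F13a1, a coagulation factor gene, was at 477 against 1.80 CPM in library 2 and 192 against 24.7 CPM in library 1, and Rgcc, a cell cycle regulator, at 1760 against 72.8 and 839 against 12.3 CPM.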

How the data were processed

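scRNA-Seq was performed on 2 libraries of CD45-CD31-Ter119- mouse periosteal cells with the 10x Chromium 3' v3.1 kit. The authors deposited UMI counts per gene and barcode, unnormalized and not pooled, made with Cell Ranger 6.1.2 on mm10 per their processing notes, whereas the written methods name a human genome. Total UMIs per library give the depth, and where a gene had no UMI, 3 counts of the group's total is the upper limit. Cells with at least 500 genes, at least 500 UMIs, and at most 10% mitochondrial UMIs were kept. Integration (CCA, Seurat 5.3.0 under R 4.3.3) joined the libraries (3000 variable genes without the 7 genes, 30 anchor dimensions, 15 principal components), and cells were clustered at resolution 0.8. Of 24 clusters, 17 hematopoietic ones were removed, and the rest was clustered again into 14. A marker counted with a log2 fold of at least 1 (10 CPM added) and a UMI in at least 20% of cells, and a name needed at least 3 markers and no other list with more of the 10 leading genes. Class names were rebuilt here and may differ from the study's, and no doublet caller was run.

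CPM are UMIs per 1000000 UMIs of a group, summed over its cells within a library, and ratios carry exact conditional binomial intervals (scipy 1.17.1, numpy 2.4.6, Python 3.11.15). Genes with at least 20 UMIs entered fold counts, with 10 CPM added and a fold of at least 2. A share of cells at 1000 UMIs is the expected share after thinning, and cells below that depth were left out of it (14 of the 993 other stromal cells of library 2 and none of the Prg4-rich cells). Levels are not compared between genes. The counting code was checked on simulated data. An edgeR test across libraries had been planned for at least 10 Prg4-rich stromal cells per library and was not run, because library 1 had 7. Named are the 7 genes, the genes of the marker and pathway lists, and the 10 genes with the largest fold in Prg4-rich stromal cells of library 2 (at least 20 UMIs and in at least 20% of those cells, higher in library 1 also). Pi16 and Clic5 come from the lists, and leading genes of clusters, F13a1, Rgcc, Cystm1, Msmp, Dmkn, and EGFP were named after their values were seen. The members and lists were chosen with earlier results of these data known. Alternatives were other cell filters, resolutions, thresholds, and added CPM, no integration, the 7 genes among the variable genes, and each library alone. Coordinates are from GENCODE M21 and upstream sequence from RefSeq.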

Additional observations from a re-analysis of the deposited data

How the results depend on the processing

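For Prg4, 4 summary values were recomputed under other settings: the share of stromal Prg4 UMIs in the class with the most (67.9% over both libraries), the share in the 10 cells with the most (41.4%), the number of Prg4-rich cells (138), and the median over the other 6 genes of the CPM ratio of Prg4-rich to other stromal cells, with 10 CPM added to both sides (13.1). Of these summary values, only the ratio has a direction, and it stayed above 1 in all settings. Single genes did not all follow it: in library 1 alone, Clu was lower in Prg4-rich cells (ratio 0.20 without added CPM), and Cytl1 and Krtdap had no UMI there. The 4 values moved when library 2 was left out, and the class with the most Prg4 was then P-SSC-like in place of superficial-zone chondrocyte-like. Over both leave-one-out settings the values ranged from 68.5% to 96.7%, from 41.9% to 99.8%, from 7 to 131 cells, and from 3.04 to 12.2. Counting cells from 1 Prg4 UMI gave 243. The other 9, 9, 11, and 15 settings moved the shares and the ratio by less than 1 SD between the libraries, which is wide with 2 libraries (48.5 and 41.0 percentage points and 6.47), and the number of cells by less than 1.5 times. Within that limit, the ratio fell to 7.80 against the other cells of the superficial-zone chondrocyte-like class alone. The other settings included leaving out the cluster led by Igkc and Vpreb3 (69.9%, 42.7%, 135, and 13.8), leaving out stromal cells with a Ptprc UMI (66.0%, 41.0%, 137, and 13.0), and CPM without Prg4 UMIs (13.7), all chosen after the data were seen. The planned DESeq2 fit and the fits without a filter or a replicate block were not run, because edgeR was not. No paired analysis was possible because no result comes from a test between groups and both libraries are of a single condition. Library 1 limits every comparison, since its 7 Prg4-rich cells leave ratios that rest on 2 cells.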

Other observations

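Msmp, a small secreted protein gene that leads the superficial-zone chondrocyte-like class, marked a subset of its Prg4-rich cells with less Cytl1. The 9 cells with at least 100 Msmp UMIs held 7634 of them and had a median of 9 Cytl1 UMIs (0 to 162, 2098 CPM), while the other 43 held 220 Msmp UMIs and had a median of 36 Cytl1 UMIs (0 to 297, 6927 CPM). Clu was at 4753 and 4768 CPM and Prg4 at 81136 and 90031 CPM in the same cells, while their median UMIs per cell differed (66 and 24 for Clu, 1163 and 548 for Prg4). The limit of 100 was chosen after the values had been seen.

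Krtdap was carried by P-SSC-like cells of library 2 that were mostly not Prg4-rich. Of 23 stromal cells with at least 5 Krtdap UMIs, 20 were P-SSC-like, 17 had Pi16, 20 had Mfap5, and 6 were Prg4-rich, and none had 100 or more Prg4 UMIs. Sbsn and Dmkn, genes of epidermal differentiation that neighbor Krtdap on the same chromosome, were higher in these 20 P-SSC-like cells than in the 264 with fewer than 5 Krtdap UMIs. Sbsn was at 494 against 170 CPM and was counted in 16 of 20 and 88 of 264 cells, and Dmkn at 202 against 11.5 CPM in 6 of 20 and 5 of 264. The 7 keratinocyte markers summed to 31 UMIs in the 20 cells (165 CPM) and 181 in the 264 (71.9 CPM), so that they were higher with Krtdap too, and their part in the result was not tested. In library 1, 1 cell had at least 5 Krtdap UMIs, with 4 Sbsn UMIs and no Dmkn.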
